A study of Mus musculus with 24 samples.

Results

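The comparison was between day 10 and day 0 of osteoblast differentiation in cultures from high bone mass (HBM) mice. It took 6 of the 24 samples of the series, chosen by genotype and day from the column names of the count table. These were 3 libraries of HBM cultures at day 10 and 3 of HBM cultures at day 0, numbered as batches 18, 19 and 21 on both days. The study behind the series, whose title speaks of procollagen, its C-propeptide and bone matrix, followed wild-type (WT) and HBM cultures at 4 time points, days 0, 10, 15 and 21 of differentiation. Each culture was grown from the calvariae (skull bones) of several newborn mice pooled together, with 3 independent pools per genotype, and polyadenylated RNA was sequenced. The labels give neither the mutation of the HBM line nor the age in days, strain or sex of the pups, and all 6 libraries carry the same genotype. Libraries with the same batch number on the 2 days were treated as the same culture, which the labels do not say outright. Values below are given for batches 18, 19 and 21 in that order. Levels are CPM, the counts scaled to library size, which do not correct for gene length, so levels are compared between libraries and not between genes.

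Osteoblasts are the cells that secrete the collagen-rich matrix of bone and then mineralize it. In culture, calvarial cells first multiply and lay down collagen, then turn on alkaline phosphatase, and later the proteins of mineralized matrix such as bone sialoprotein and osteocalcin. Some become osteocytes, the cells embedded in bone, which make Dmp1, Phex and sclerostin. Calvarial preparations can also carry macrophages, cartilage cells and precursors of fat cells, so markers of these cells were described beside the bone genes.

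Across 15011 genes tested, 1561 (10.4%) were higher and 1268 (8.45%) lower at day 10 than at day 0 at an adjusted p under 0.05 (edgeR's quasi-likelihood test with the culture as a block, Benjamini-Hochberg adjustment). That made 2829 (18.8%) in either direction. Each of the 2829 genes moved the same way in all 3 cultures. A test on 3 paired differences favours such genes, so this is not separate evidence. Over all 15011 genes tested, 4434 were higher and 4779 lower in all 3 cultures. Of the 2829 called genes, 1267 were at least 2-fold higher and 370 at least 2-fold lower, and 508 were at least 8-fold higher against 42 at least 8-fold lower. The median log2 change of all genes tested was -0.02. Without regard to the test, the day 10 libraries were all above the day 0 libraries for 18.5% of genes and all below them for 21.0%. With the batch 18 pair left out no gene passed (0 called, 3322 at an unadjusted p under 0.05). A fit to 2 pairs has 1 residual degree of freedom, whichever pair is left out, so a call lost there does not show a smaller change. All 160 called genes named below kept their direction without any 1 pair. This follows from their moving the same way in all 3 cultures and is not separate evidence. For some the log2 change hardly moved (3.97 to 4.20 for Col14a1, 2.75 to 2.91 for Cxcl12), and for others it moved with the culture left out (10.20 to 12.08 for Ibsp, 5.01 to 6.74 for Phex). With the batch 19 pair left out 302 genes passed, and with the batch 21 pair left out 3308 did. Without the block, 1050 genes passed as higher and 1037 as lower, and 1844 of the 2087 were among those called with it, all in the same direction.

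**Figure D1:**
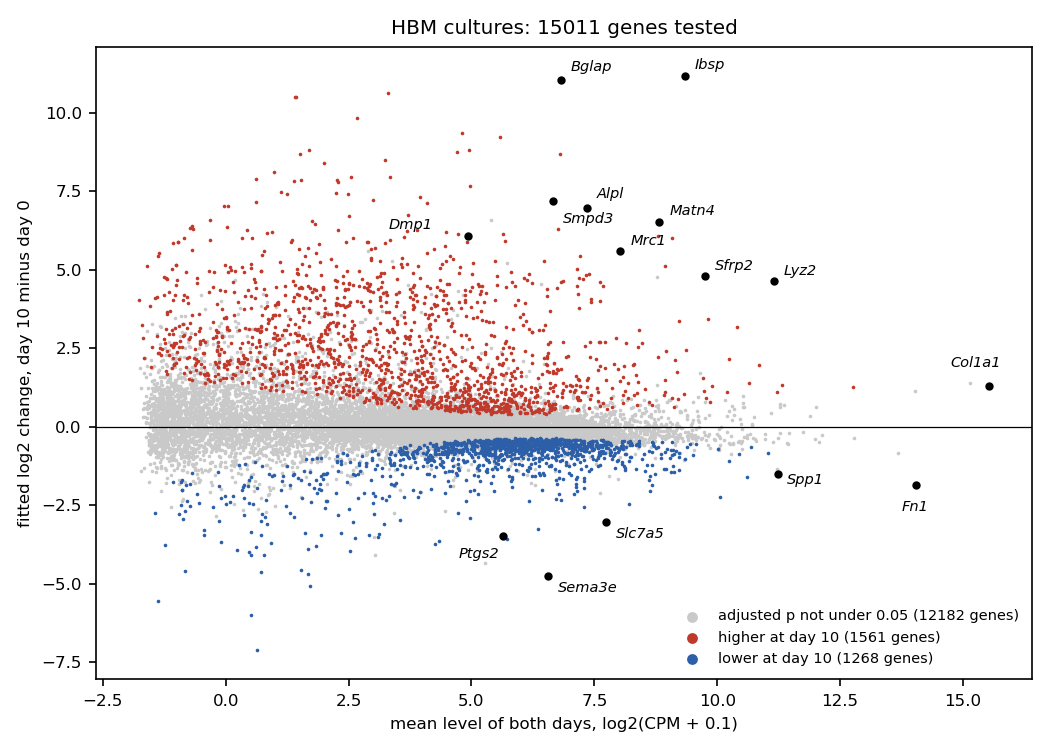
Fitted log2 change from day 0 to day 10 (vertical axis, day 10 minus day 0) against the mean level of both days (horizontal axis, log2 of CPM plus 0.1) for the 15011 genes tested in HBM cultures, one point per gene, with red for the 1561 higher and blue for the 1268 lower at day 10. Large changes lay mostly on the higher side, with Ibsp at 11.17 and Bglap at 11.04, and the falls reached less far among abundant genes, with Sema3e at -4.75.

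The cultures differed in how far they moved. Total counts ran from 30261649 to 43013049 per library. In a principal component analysis of the 6 libraries the first component took 62.6% of the variance and parted the days, with scores of 60.1, 76.5 and 67.6 at day 10 and -91.9, -76.4 and -35.8 at day 0. The second took 19.2% of the variance and set batch 21, at -41.9 at day 10 and -65.4 at day 0, apart from the other cultures, at 18.9 to 37.1. The spread of the log2 change over genes was 1.29 and 1.31 (SD) in batches 18 and 19 and 0.995 in batch 21, and 736, 719 and 357 genes moved at least 8-fold. Across genes, which are not independent replicates, the changes of 2 cultures had a Pearson r of 0.831 (18 and 19), 0.752 (18 and 21) and 0.668 (19 and 21). Genes that define osteoblasts were detected in all 6 libraries, with Runx2 at 65.7 to 106 CPM and Sp7 at 22.9 to 236 CPM. Genes that differ by sex were used as a check of the pools. The female-specific transcript Xist stood at 295, 214 and 0.0238 CPM at day 10, against 537, 182 and 0 CPM at day 0, so batch 21 held at most 1 count of it on either day. The Y-linked Ddx3y stood at 12.2, 36.0 and 77.9 CPM at day 10, against 18.5, 48.4 and 82.9 CPM at day 0.

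Ibsp and Bglap, genes of mineralized bone matrix, had the 2 largest rises among called genes with a mean of at least 20 CPM on the higher day. Ibsp, bone sialoprotein, an acidic phosphoprotein that binds collagen and mineral, had 1456, 2328 and 95.1 CPM at day 10, against 0.500, 0.366 and 0.391 CPM at day 0 (log2 change 11.17 ± 1.04 SE, adjusted p = 0.0152). Its day 10 level in batch 21 was far below that of the other cultures, while the day 0 levels were alike and the days did not overlap. Bglap, which encodes osteocalcin, a small matrix protein that is carboxylated with the help of vitamin K, had 327, 333 and 16.1 CPM at day 10, against 0.0833, 0.0523 and 0.163 CPM at day 0, where it had at most 5 counts in a library (log2 change 11.04 ± 0.91 SE, adjusted p = 0.0141). Its neighbour and near-copy Bglap2 had 311, 334 and 24.9 CPM at day 10, against 0.361, 0.209 and 0.652 CPM at day 0 (log2 change 8.69 ± 1.18 SE, adjusted p = 0.0222). The 2 genes share sequence, and how reads that match both were counted is not given in the sources used here, so the split between them is uncertain. Ifitm5, a membrane protein of mineralizing osteoblasts, had 39.1, 51.0 and 1.74 CPM at day 10, against 0.278, 0.131 and 0.0978 CPM at day 0 (log2 change 7.32 ± 0.71 SE, adjusted p = 0.0162). In each of these 4 genes the batch 21 culture stood lowest at day 10. In bulk RNA, fewer cells of a type and less RNA per cell cannot be told apart. Against 10.4% of all genes, 2 of 3 bone phosphoproteins tested rose (median log2 change 6.08). Of 6 vitamin K dependent and small bone matrix proteins 3 rose (4.72), with no falls in either list. Not all matrix proteins of bone moved this way. Spp1, osteopontin, a phosphoprotein also made by cells that do not mineralize, had 1644, 2276 and 388 CPM at day 10, against 3559, 2785 and 3719 CPM at day 0. It was lower in every culture without passing the test (log2 change -1.52 ± 0.65 SE, adjusted p = 0.166). Sparc, osteonectin, had 26020, 29118 and 14350 CPM at day 10, against 8699, 10075 and 11981 CPM at day 0 (log2 change 1.13 ± 0.42 SE, adjusted p = 0.128). The calcification inhibitor Mgp had 777, 569 and 667 CPM at day 10, against 285, 311 and 844 CPM at day 0 (log2 change 0.67 ± 0.38 SE, adjusted p = 0.263). With the batch 18, 19 or 21 pair left out, 0, 2 and 4 of the 4 called genes named here stayed past the threshold, at adjusted p of 0.118 to 0.149, 0.0459 to 0.0669 and 0.00108 to 0.00213.

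Osteocyte genes appeared in the same cultures. Dmp1, a phosphoprotein of the osteocyte matrix, had 51.8, 123 and 4.53 CPM at day 10, against 0.389, 0.732 and 0.619 CPM at day 0 (log2 change 6.08 ± 1.06 SE, adjusted p = 0.0308). Phex, an endopeptidase whose loss causes phosphate wasting, had 69.8, 105 and 2.22 CPM at day 10, against 0.750, 0.888 and 0.424 CPM at day 0 (log2 change 5.88 ± 0.98 SE, adjusted p = 0.0287). Both had their lowest day 10 level in batch 21, still above every day 0 library. Sost, which encodes the Wnt inhibitor sclerostin, had 7.63, 14.7 and 0.0238 CPM at day 10 and no count at day 0. It did not pass the count filter and was not tested, although batches 18 and 19 held it clearly at day 10. Its mean at day 10 was at least 86.2-fold higher than the level of 3 counts per day 0 library. The batch 21 library held 1 of its counts at day 10. Mepe, another osteocyte phosphoprotein, had 0.578, 1.99 and 0.0238 CPM at day 10 and no count at day 0, and was not tested either. Cd44, a hyaluronan receptor present on osteocytes and many other cells, fell to 196, 213 and 269 CPM at day 10, against 407, 669 and 515 CPM at day 0 (log2 change -1.21 ± 0.18 SE, adjusted p = 0.0245). Of the 7 osteocyte genes tested, Dmp1 and Phex passed as higher and Cd44 as lower, and the list's median log2 change was -0.07. The list's shares were 28.6% higher and 14.3% lower, against 10.4% and 8.45% of all genes. Without the batch 21 pair 9 were tested, 5 rose and 3 fell, and the median was 0.95, and over all 24 libraries it was 0.40. The early osteocyte marker Pdpn had 159, 126 and 148 CPM at day 10, against 131, 208 and 126 CPM at day 0, values that overlapped. Of the 3 called genes, 0, 0 and 3 passed when batch 18, 19 or 21 was left out (adjusted p 0.142 to 0.193, 0.0638 to 0.105 and 0.00108 to 0.0200).

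The start regions of 3 of these genes are shown because Ibsp, Bglap and Dmp1 are textbook targets of Runx2, the master regulator of osteoblasts, whose consensus site is ACCACA. The windows are RefSeq promoters of GRCm38.p6, from 250 bases before to 50 bases after the start of transcription. They read 5′ to 3′ on the gene's strand, with ACCACA matches of either strand in capitals. They are Bglap at chr3:88384417-88384716 (minus strand), Dmp1 at chr5:104202367-104202666 (plus strand, 1 of its 2 RefSeq starts) and Ibsp at chr5:104299037-104299336 (plus strand).
Bglap: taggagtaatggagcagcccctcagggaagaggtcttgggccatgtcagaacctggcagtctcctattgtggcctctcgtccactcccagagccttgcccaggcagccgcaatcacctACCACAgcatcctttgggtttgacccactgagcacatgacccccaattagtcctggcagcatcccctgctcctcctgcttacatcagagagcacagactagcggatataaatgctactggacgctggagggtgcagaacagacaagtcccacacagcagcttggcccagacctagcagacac
Dmp1: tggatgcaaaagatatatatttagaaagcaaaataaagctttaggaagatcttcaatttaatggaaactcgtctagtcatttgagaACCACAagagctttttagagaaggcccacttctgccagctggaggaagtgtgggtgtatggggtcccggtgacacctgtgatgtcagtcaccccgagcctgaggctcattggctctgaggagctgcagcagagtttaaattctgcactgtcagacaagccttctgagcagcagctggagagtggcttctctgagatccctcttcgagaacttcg
Ibsp: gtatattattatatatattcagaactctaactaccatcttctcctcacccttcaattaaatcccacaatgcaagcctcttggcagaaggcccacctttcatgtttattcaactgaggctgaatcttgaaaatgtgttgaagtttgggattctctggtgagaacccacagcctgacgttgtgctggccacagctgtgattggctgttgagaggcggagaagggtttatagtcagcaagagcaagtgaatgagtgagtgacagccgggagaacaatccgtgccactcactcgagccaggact
The match lay at -132 in Bglap and at -164 in Dmp1, counted from the start, and the Ibsp window held none. Of 20 genes of the bone phosphoprotein, vitamin K and osteocyte lists, 15 had a RefSeq promoter and 6 of them held the motif in at least 1, the others being Mepe, Sparc, Spp1 and Ucma. Some genes have several promoters: 6 of the 22 promoters of these genes held it, and of all 32851 promoters 16.8% do. These matches are a description of the letters in the window, and the list of holders includes Spp1, which had lower values at day 10, beside Bglap and Dmp1, which rose.

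**Figure D2:**
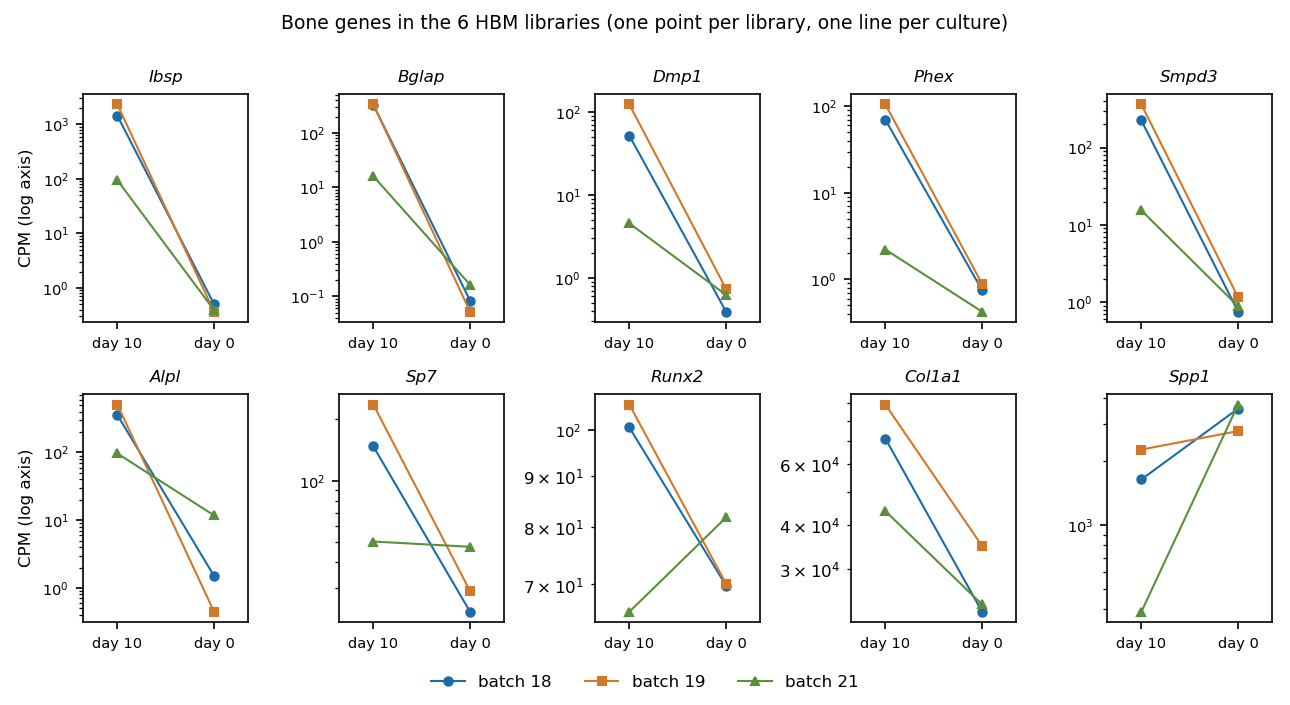
Level of 10 bone genes in the 6 HBM libraries, in CPM on a log axis, day 10 on the left and day 0 on the right of each panel, one point per library and one line per culture (blue circles for batch 18, orange squares for batch 19, green triangles for batch 21). For Ibsp, Bglap, Dmp1, Phex and Smpd3 the batch 21 culture sits well below the others at day 10, at 95.1 CPM against 1456 and 2328 CPM for Ibsp, and for Sp7 and Runx2 its line is flat or runs the other way.

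Genes of phosphate and mineral handling moved in both directions. Smpd3, a neutral sphingomyelinase needed for mineralization of bone and cartilage, had 224, 362 and 15.4 CPM at day 10, against 0.750, 1.15 and 0.880 CPM at day 0 (log2 change 7.18 ± 1.04 SE, adjusted p = 0.0235). Slc8a3, a sodium and calcium exchanger, had 64.1, 107 and 18.9 CPM at day 10, against 0.833, 1.75 and 1.86 CPM at day 0 (log2 change 5.20 ± 0.70 SE, adjusted p = 0.0222). Alpl, the alkaline phosphatase that clears the mineralization inhibitor pyrophosphate, had 359, 510.5 and 96.8 CPM at day 10, against 1.50, 0.444 and 11.8 CPM at day 0. The days did not overlap, but the change ran unevenly over the cultures and did not pass (log2 change 6.98 ± 1.76 SE, adjusted p = 0.0588). Its adjusted p was 0.0384 without the block and 3.03e-05 in DESeq2. Phospho1, a phosphatase of matrix vesicles, had 19.0, 31.8 and 2.50 CPM at day 10, against 0.611, 0.470 and 0.847 CPM at day 0, and did not pass either (log2 change 4.29 ± 1.03 SE, adjusted p = 0.0529). Of the phosphate transporters, 2 fell. Slc20a1, a sodium-dependent phosphate importer, fell to 36.5, 37.4 and 40.1 CPM at day 10, against 229, 486 and 102 CPM at day 0 (log2 change -2.57 ± 0.50 SE, adjusted p = 0.0361). Xpr1, a phosphate exporter, fell to 35.9, 39.3 and 48.7 CPM at day 10, against 63.2, 57.7 and 64.4 CPM at day 0 (log2 change -0.59 ± 0.12 SE, adjusted p = 0.0377). The day 10 levels of Slc20a1 were nearly equal across cultures, while its day 0 levels spread widely. In all, 3 of 11 tested members rose and 2 fell (27.3% and 18.2%, against 10.4% and 8.45% of all genes). By fitted level 6 were higher and 5 lower. The median log2 change of 4.29 was that of Phospho1, which did not pass. It was 2.16 over the 10 members with at least 1 CPM in 3 libraries, so it does not describe the list as a whole. Median changes within the batches were 4.85, 5.89 and 1.02. Leaving out batch 18, 19 or 21 gave adjusted p of 0.137 to 0.193, 0.0750 to 0.123 and 0.00108 to 0.0360 for the 5 called genes and kept 0, 0 and 5 calls.

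The transcription factors that specify osteoblasts did not share a direction. Runx2, which commits cells to the osteoblast lineage, had 101, 106 and 65.7 CPM at day 10, against 69.8, 70.1 and 81.7 CPM at day 0, values that overlapped (log2 change 0.27 ± 0.21 SE, adjusted p = 0.398). Sp7, osterix, which acts after Runx2, had 147, 236 and 50.5 CPM at day 10, against 22.9, 28.9 and 47.6 CPM at day 0 (log2 change 1.99 ± 0.68 SE, adjusted p = 0.109). In batch 21 its levels on the 2 days were close, while the other cultures had several times their day 0 level. The homeobox gene Dlx3, a regulator of late osteoblasts, rose to 28.6, 46.4 and 2.07 CPM at day 10, against 0.500, 0.105 and 0.0652 CPM at day 0 (log2 change 6.75 ± 0.72 SE, adjusted p = 0.0178). Msx2, a homeobox gene of proliferating calvarial cells, fell to 33.5, 35.4 and 93.6 CPM at day 10, against 173, 223 and 252 CPM at day 0 (log2 change -2.15 ± 0.27 SE, adjusted p = 0.0213). These were the 2 of 10 factors tested that passed, 10.0% in each direction, near the shares of all genes (10.4% higher and 8.45% lower). The list's median log2 change was 0.16, with 0.42, 0.51 and -0.52 in the 3 cultures. Twist1 and Dlx5 did not pass (log2 changes -0.20 ± 0.12 and 0.29 ± 0.38 SE, adjusted p = 0.286 and 0.611). The adjusted p of these 2 called genes ran over 0.114 to 0.139 without the batch 18 pair, 0.0398 to 0.0613 without batch 19 and 0.00250 to 0.00816 without batch 21, which left 0, 1 and 2 of them past the threshold.

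The fibrillar collagens rose in part. Col1a1 and Col1a2 encode the chains of collagen I, the main protein of bone. Col1a1 had 71075, 88998 and 43979 CPM at day 10, against 22576, 34907 and 23695 CPM at day 0. Col1a2 had 57619, 71919 and 29242 CPM at day 10, against 17236, 23242 and 16753 CPM at day 0. In both genes every day 10 library lay above every day 0 library, with fitted folds of 2.46 and 2.63, but neither passed (log2 changes 1.30 ± 0.46 and 1.39 ± 0.44 SE, adjusted p = 0.113 and 0.0933). The adjusted p was 0.109 and 0.0892 without the block, and 9.88e-09 and 1.5e-07 in DESeq2. The 10 genes with the most counts in a library took 19.3%, 22.4% and 14.5% of counts at day 10, against 11.6%, 14.2% and 13.3% at day 0. Thrombospondin 1 (Thbs1), the elongation factor Eef1a1 and the mitochondrial mt-Co1 were among the genes with the most counts and did not pass (log2 changes -0.85 ± 0.31, -0.36 ± 0.23 and 0.63 ± 0.26 SE, adjusted p = 0.121, 0.319 and 0.157). Col3a1, which forms mixed fibrils with collagen I, rose to 11981, 9973 and 7295 CPM at day 10, against 3669, 5388 and 3194 CPM at day 0 (log2 change 1.26 ± 0.28 SE, adjusted p = 0.0447). Col5a1 and Col5a2, chains of the collagen V that starts fibrils, did not pass (log2 changes -0.40 ± 0.19 and -0.27 ± 0.31 SE, adjusted p = 0.206 and 0.567). The third chain, Col5a3, rose to 239, 139 and 111 CPM, against 47.7, 49.7 and 43.2 CPM at day 0 (log2 change 1.72 ± 0.23 SE, adjusted p = 0.0218). Among 18 minor fibrillar and fibril-associated collagens tested, 8 rose (44.4%, against 10.4% of all genes) and none fell. The median log2 change was 1.86 (2.19, 1.40 and 1.44 by culture). The counts of rises without the batch 18, 19 and 21 pairs were 0, 2 and 10. Col14a1, a fibril-associated collagen of soft connective tissue, had 393, 335 and 242 CPM at day 10, against 22.4, 18.0 and 17.3 CPM at day 0, with a similar fold in each culture (log2 change 4.05 ± 0.14 SE, adjusted p = 0.00849). Col24a1, a fibrillar collagen made in bone, had 96.6, 147 and 18.0 CPM at day 10, against 0.916, 4.60 and 1.08 CPM at day 0 (log2 change 5.26 ± 0.56 SE, adjusted p = 0.0178). Col27a1 rose as well (log2 change 2.49 ± 0.21 SE, adjusted p = 0.0141), as did the cartilage-associated Col9a2 and Col9a3 (log2 changes 4.33 ± 0.42 and 1.99 ± 0.31 SE, adjusted p = 0.0163 and 0.0263). Of 15 other collagens tested 3 rose and 1 fell. Col13a1, a membrane-spanning collagen, had 55.8, 94.7 and 5.05 CPM at day 10, against 0.111, 0.0784 and 0.130 CPM at day 0 (log2 change 8.75 ± 0.78 SE, adjusted p = 0.0147). Col15a1 rose with a log2 change of 4.85 and Col6a2 with 1.09. Col7a1, the collagen of anchoring fibrils, fell to 20.2, 52.3 and 22.3 CPM, against 68.7, 155 and 39.7 CPM at day 0 (log2 change -1.39 ± 0.21 SE, adjusted p = 0.0247). With the batch 18, 19 or 21 pair left out, 0, 3 and 9 of the 11 called genes named here stayed past the threshold, at adjusted p of 0.0944 to 0.230, 0.0398 to 0.0935 and 0.00108 to 0.0744. Col3a1 (0.0521), Col9a3 (0.345), Col6a2 (0.0728) and Col7a1 (0.143) did not pass without the block.

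Of the 10 tested genes of collagen I and its procollagen processing 4 rose (40.0%, against 10.4% of all genes). Of the 20 that fold and hydroxylate procollagen 1 rose. Bmp1, which cleaves the C-propeptide from procollagen, had 476, 502 and 288 CPM at day 10, against 246, 273 and 245 CPM at day 0, without overlap and without passing (log2 change 0.69 ± 0.18 SE, adjusted p = 0.0638). Its adjusted p was 0.0795 without the block and 0.00577 in DESeq2. Tll1, a protease of the same family, rose to 72.7, 99.3 and 75.8 CPM at day 10, against 33.0, 69.0 and 24.1 CPM at day 0 (log2 change 1.10 ± 0.24 SE, adjusted p = 0.0430). The day 0 level of batch 19 was almost as high as the lowest day 10 level. Pcolce, which enhances the removal of the C-propeptide, rose to 2049, 1516 and 1276 CPM at day 10, against 749.9, 777 and 673 CPM at day 0 (log2 change 1.11 ± 0.17 SE, adjusted p = 0.0262). The N-propeptide proteases Adamts2 and Adamts3 rose too. Adamts2 had 459, 309 and 234 CPM at day 10, against 108, 87.4 and 70.9 CPM at day 0 (log2 change 1.88 ± 0.12 SE, adjusted p = 0.0128). Adamts3 had a log2 change of 1.58 (adjusted p = 0.0240). With Col1a1 and Col1a2 the processing list held 10 tested genes, of which none fell, and all 10 had a higher fitted level (median log2 change 1.11, and 1.29, 0.92 and 0.85 by culture). Among the 20 genes of prolyl and lysyl modification, 17 had a higher fitted level, with 1 rise and 1 fall (median log2 change 0.46). Those calls (5.0% each) were below the shares of all genes (10.4% higher and 8.45% lower). Crtap, part of the complex that hydroxylates proline 3, rose to 541, 450.5 and 361 CPM at day 10, against 189, 212 and 232 CPM at day 0 (log2 change 1.08 ± 0.20 SE, adjusted p = 0.0333). Plod3, a lysyl hydroxylase, fell to 248, 274 and 314 CPM, against 336, 418 and 454 CPM at day 0 (log2 change -0.53 ± 0.10 SE, adjusted p = 0.0377). DESeq2 called 8 higher and 2 lower of this list. Serpinh1, the collagen chaperone, had 4447, 5063 and 3228 CPM at day 10, against 3153, 3790 and 3085 CPM at day 0 (log2 change 0.33 ± 0.20 SE, adjusted p = 0.299). Of the 5 lysyl oxidases, which start the crosslinking of collagen and elastin, Loxl2 fell to 269, 343 and 351 CPM at day 10, against 570.4, 1193 and 829 CPM at day 0 (log2 change -1.37 ± 0.19 SE, adjusted p = 0.0222). Loxl3 fell as well (log2 change -1.36 ± 0.16 SE, adjusted p = 0.0189), and Lox itself did not pass (log2 change -0.25 ± 0.16 SE, adjusted p = 0.320). Of the 8 called genes, 0, 1 and 7 passed when batch 18, 19 or 21 was left out (adjusted p 0.0984 to 0.210, 0.0423 to 0.150 and 0.00460 to 0.0675). In the fit without the block Tll1 (0.142) and Plod3 (0.0788) lost the call.

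The small leucine-rich proteoglycans, which coat collagen fibrils and set their width, rose for the most part. Of 11 tested 8 rose (72.7%, against 10.4% of all genes) and none fell. The median log2 change was 1.74 (2.42, 1.46 and 1.70 by culture), and the count of rises without the batch 18, 19 and 21 pairs was 0, 4 and 8. Decorin, Dcn, had 1921, 1324 and 1642 CPM at day 10, against 108, 244 and 131 CPM at day 0 (log2 change 3.42 ± 0.40 SE, adjusted p = 0.0197). Lumican, Lum, had 2681, 2192 and 2332 CPM at day 10, against 180.0, 599 and 176 CPM at day 0 (log2 change 3.18 ± 0.50 SE, adjusted p = 0.0263). For both genes the batch 21 culture lay within the range of the others at day 10, unlike for Ibsp, Bglap and Ifitm5. Omd, osteomodulin, a member enriched in bone, had 95.7, 94.3 and 31.8 CPM at day 10, against 4.08, 14.1 and 4.56 CPM at day 0 (log2 change 3.34 ± 0.44 SE, adjusted p = 0.0218), with batch 21 lowest at day 10. Prelp, Epyc, Ogn, Fmod and Aspn rose with log2 changes of 2.41, 3.32, 1.74, 1.33 and 1.12. Biglycan, Bgn, had 4748, 3940 and 2271 CPM at day 10, against 5159, 4263 and 5477 CPM at day 0, values that overlapped (log2 change -0.50 ± 0.32 SE, adjusted p = 0.318). Leaving out batch 18, 19 or 21 gave adjusted p of 0.0984 to 0.220, 0.0398 to 0.115 and 0.00369 to 0.0648 for the 8 called genes and kept 0, 4 and 7 calls. Calls that needed the block were Epyc (0.0650) and Aspn (0.0574).

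Adhesive and elastic matrix genes moved in both directions. Fibronectin, Fn1, on which early collagen is assembled, fell to 6023, 7703 and 7892 CPM at day 10, against 20542, 28202 and 31167 CPM at day 0 (log2 change -1.87 ± 0.31 SE, adjusted p = 0.0279). Periostin, Postn, a matricellular protein of periosteum, rose to 1972, 1502 and 669 CPM at day 10, against 546, 700.4 and 349 CPM at day 0 (log2 change 1.30 ± 0.23 SE, adjusted p = 0.0315). The batch 21 level at day 10 was below the highest day 0 level, so the days overlapped. Tnn, tenascin W, a matrix protein of bone-forming sites, rose to 217, 360.5 and 142 CPM at day 10, against 50.3, 180.4 and 47.8 CPM at day 0, also with overlap (log2 change 1.56 ± 0.24 SE, adjusted p = 0.0250). Ccn3, a regulator of the CCN family, rose to 1088, 385 and 381 CPM at day 10, against 110.2, 81.9 and 69.8 CPM at day 0 (log2 change 2.66 ± 0.25 SE, adjusted p = 0.0158). Smoc1, Smoc2 and Comp also rose (log2 changes 3.10 ± 0.15, 1.39 ± 0.12 and 2.62 ± 0.52 SE, adjusted p = 0.0106, 0.0141 and 0.0380). That makes 6 rises and 1 fall among 18 tested (median log2 change 0.42, and 0, 3 and 5 rises without the batch 18, 19 and 21 pairs). The list's shares were 33.3% higher and 5.56% lower, against 10.4% and 8.45% of all genes. In the elastic fibre list 3 rose and 3 fell of 16, against 10.4% higher and 8.45% lower over all genes. Elastin, Eln, had 613, 500.0 and 33.5 CPM at day 10, against 10.6, 17.7 and 4.17 CPM at day 0 (log2 change 4.62 ± 0.65 SE, adjusted p = 0.0229). The microfibril genes Mfap2 and Mfap5 rose beside it (log2 changes 2.70 ± 0.41 and 2.39 ± 0.24 SE, adjusted p = 0.0252 and 0.0169). The fibrillin gene Fbn1 fell to 443, 275 and 184 CPM, against 1148, 767 and 515 CPM at day 0 (log2 change -1.44 ± 0.11 SE, adjusted p = 0.0135). Fbln2 fell by a log2 of 2.25, and Ltbp1, which binds latent TGF-beta, fell by 2.06. Of 15 matrix metalloproteinases and inhibitors tested, Mmp9, a gelatinase of osteoclasts and macrophages, and Mmp23 rose (log2 changes 4.14 ± 0.78 and 1.48 ± 0.24 SE, adjusted p = 0.0350 and 0.0277) and none fell, a share near that of all genes (10.4% higher). The adjusted p of these 15 called genes ran over 0.0984 to 0.186 without the batch 18 pair, 0.0398 to 0.119 without batch 19 and 0.00280 to 0.0534 without batch 21, which left 0, 6 and 14 of them past the threshold. Without the block Postn (0.0900), Tnn (0.179), Smoc2 (0.194), Comp (0.116), Mfap5 (0.112), Fbn1 (0.0692) and Fbln2 (0.0706) did not pass.

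Wnt signals drive bone formation and are held in check by secreted inhibitors. Of 18 tested Wnt ligands and readouts 6 rose (33.3%, against 10.4% of all genes) and none fell. The median log2 change was 1.07. Without the batch 18, 19 and 21 pairs 0, 2 and 9 rose. The ligand Wnt7b had 5.05, 3.03 and 3.17 CPM at day 10, against 0.194, 0.444 and 0.130 CPM at day 0 (log2 change 3.90 ± 0.52 SE, adjusted p = 0.0221). Wnt16 had 3.71, 7.22 and 0.596 CPM, against 0.694, 1.02 and 0.0978 CPM at day 0 (log2 change 2.61 ± 0.28 SE, adjusted p = 0.0178). The R-spondin receptor Lgr5 had 172, 129.7 and 131 CPM at day 10, against 28.7, 5.85 and 27.4 CPM at day 0 (log2 change 3.06 ± 0.50 SE, adjusted p = 0.0279). Tcf7, a Wnt-induced transcription factor, Nkd1 and Wnt5b rose as well (log2 changes 3.16 ± 0.68, 2.38 ± 0.50 and 1.12 ± 0.19 SE, adjusted p = 0.0436, 0.0409 and 0.0300), while the readout Axin2 did not pass (log2 change 0.37 ± 0.42 SE, adjusted p = 0.550). Of 12 secreted modulators tested 4 rose (33.3%, against 10.4% of all genes). The inhibitor Sfrp2 had 2540, 1053 and 1403 CPM at day 10, against 64.2, 61.5 and 44.6 CPM at day 0 (log2 change 4.80 ± 0.32 SE, adjusted p = 0.0128). Sfrp1 had 504, 273 and 41.0 CPM, against 68.3, 60.7 and 6.62 CPM at day 0 (log2 change 2.56 ± 0.18 SE, adjusted p = 0.0128). The agonist Rspo3 rose too (log2 change 2.28 ± 0.45 SE, adjusted p = 0.0377). The inhibitor Dkk1 had 12.2, 34.4 and 0.310 CPM at day 10, against 0.0833, 0.105 and 0.0652 CPM at day 0 (log2 change 7.23 ± 0.95 SE, adjusted p = 0.0218). Batch 21 was far below the other cultures at day 10. With the batch 18, 19 or 21 pair left out, 0, 4 and 10 of the 10 called genes named here stayed past the threshold, at adjusted p of 0.0984 to 0.231, 0.0398 to 0.127 and 0.00198 to 0.0351. Wnt16 (0.142), Nkd1 (0.0824), Wnt5b (0.0676), Sfrp1 (0.161) and Rspo3 (0.0967) did not pass without the block.

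Among 23 BMP genes tested 8 rose and 2 fell (median log2 change 0.83, and 0, 2 and 11 rises without the batch 18, 19 and 21 pairs). The list's shares were 34.8% higher and 8.70% lower, against 10.4% and 8.45% of all genes, so the falls were near that share. BMPs are growth factors that induce bone. Bmp3, an antagonist of the family made by osteoblasts, had 48.4, 75.9 and 8.29 CPM at day 10, against 0.611, 0.784 and 0.228 CPM at day 0 (log2 change 6.20 ± 0.31 SE, adjusted p = 0.0106). Bmp2, Bmp4, Bmp6 and Bmp8a rose with log2 changes of 1.80, 1.10, 1.69 and 3.94. The antagonist Chrdl1 had 286, 198 and 43.0 CPM at day 10, against 18.0, 10.2 and 2.35 CPM at day 0 (log2 change 4.15 ± 0.11 SE, adjusted p = 0.00687). Its fold was nearly equal in each culture although batch 21 stood lower on both days. Chrd and Fst rose (log2 changes 1.30 ± 0.13 and 1.73 ± 0.22 SE, adjusted p = 0.0169 and 0.0218). The inhibitory Smad7 fell (log2 change -1.13 ± 0.23 SE, adjusted p = 0.0378). Of 9 TGF-beta genes tested 3 rose and 4 fell (33.3% and 44.4%, against 10.4% and 8.45% of all genes). Tgfb1 had 63.7, 104 and 74.4 CPM at day 10, against 17.1, 20.6 and 20.6 CPM at day 0 (log2 change 2.03 ± 0.14 SE, adjusted p = 0.0128). Tgfb2 and Gdf10 rose too (log2 changes 1.24 ± 0.28 and 4.74 ± 0.22 SE, adjusted p = 0.0488 and 0.0106), and the activin subunits Inhba and Inhbb fell (log2 changes -1.24 ± 0.10 and -2.36 ± 0.24 SE, adjusted p = 0.0142 and 0.0167). In the IGF system 5 rose and 2 fell of 14 (35.7% and 14.3%, against 10.4% and 8.45% of all genes). Igf1, a growth factor stored in bone, had 363, 336 and 442 CPM at day 10, against 115, 155 and 151 CPM at day 0 (log2 change 1.44 ± 0.15 SE, adjusted p = 0.0170). Its receptor Igf1r fell to 57.6, 49.1 and 74.1 CPM at day 10, against 158, 125 and 196 CPM at day 0 (log2 change -1.40 ± 0.09 SE, adjusted p = 0.0128). Igf2r fell as well (log2 change -1.50 ± 0.17 SE, adjusted p = 0.0186). The binding protein Igfbp4 rose to 3849, 2709 and 2339 CPM, against 845, 644 and 748 CPM at day 0 (log2 change 1.97 ± 0.19 SE, adjusted p = 0.0161). Of 17 FGF genes 4 rose and 2 fell (23.5% and 11.8%, against 10.4% and 8.45% of all genes). The receptor Fgfr3 had 47.8, 72.0 and 68.2 CPM at day 10, against 2.94, 5.85 and 9.65 CPM at day 0 (log2 change 3.48 ± 0.27 SE, adjusted p = 0.0135). The ligand Fgf9 fell to 0.698, 1.42 and 2.26 CPM, against 15.5, 13.1 and 17.8 CPM at day 0 (log2 change -3.51 ± 0.37 SE, adjusted p = 0.0175). Of the 20 called genes, 0, 10 and 19 passed when batch 18, 19 or 21 was left out (adjusted p 0.0944 to 0.229, 0.0398 to 0.133 and 0.00108 to 0.0759). In the fit without the block Bmp4 (0.0706) and Bmp6 (0.115) lost the call.

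Genes by which osteoblasts act on other cells followed no single direction. The osteoclast-inducing ligand Tnfsf11 (RANKL) had 2.29, 1.99 and 0.667 CPM at day 10, against 1.67, 4.89 and 1.76 CPM at day 0 (log2 change -0.74 ± 0.48 SE, adjusted p = 0.313). Its decoy receptor Tnfrsf11b had 49.0, 52.4 and 84.1 CPM, against 80.0, 151 and 58.8 CPM at day 0 (log2 change -0.58 ± 0.41 SE, adjusted p = 0.362). Both sets of values overlapped between the days. Csf1, the macrophage growth factor, fell to 438, 291 and 418 CPM at day 10, against 711, 682 and 711 CPM at day 0 (log2 change -0.90 ± 0.16 SE, adjusted p = 0.0309). Il34, which binds the same receptor, rose to 34.0, 26.3 and 47.5 CPM, against 7.47, 14.8 and 22.0 CPM at day 0 (log2 change 1.37 ± 0.30 SE, adjusted p = 0.0450). Ptgs2, the inducible prostaglandin synthase, fell to 4.14, 8.21 and 8.86 CPM, against 35.9, 169 and 71.0 CPM at day 0 (log2 change -3.49 ± 0.33 SE, adjusted p = 0.0155). The chemokine Cxcl12 rose to 699.6, 266 and 331 CPM, against 99.7, 42.7 and 41.3 CPM at day 0 (log2 change 2.82 ± 0.13 SE, adjusted p = 0.0106). Lif and Sema3a fell, which makes 2 rises and 4 falls among 14 tested (14.3% and 28.6%, against 10.4% and 8.45% of all genes). The parathyroid hormone receptor Pth1r rose to 178, 237 and 64.9 CPM, against 25.9, 41.0 and 19.7 CPM at day 0 (log2 change 2.35 ± 0.24 SE, adjusted p = 0.0169). It was 1 of 2 rises among 13 hormone receptors, with Thra, and the leptin receptor Lepr fell (log2 change -1.53 ± 0.34 SE, adjusted p = 0.0459). The receptor list's shares (15.4% higher and 7.69% lower) were not far from those of all genes (10.4% and 8.45%). Among 19 guidance genes (semaphorins, plexins and neuropilins) 6 rose and 5 fell. The list's shares were 31.6% higher and 26.3% lower, against 10.4% and 8.45% of all genes. Sema3e, a repulsive cue for vessels, had the largest fall among called genes with a mean of at least 20 CPM on the higher day, to 3.80, 4.42 and 16.2 CPM at day 10, against 224, 165 and 147 CPM at day 0 (log2 change -4.75 ± 0.64 SE, adjusted p = 0.0221). Its receptor Plxnd1 rose to 85.5, 90.4 and 102 CPM, against 21.2, 14.6 and 19.7 CPM at day 0 (log2 change 2.34 ± 0.15 SE, adjusted p = 0.0128). Sema3b and Sema3d rose (log2 changes 3.02 ± 0.46 and 2.38 ± 0.27 SE, adjusted p = 0.0252 and 0.0187). Of 18 integrins and collagen receptors 3 rose and 3 fell, a share not far from the 10.4% and 8.45% of all genes. Itga10, a collagen receptor of cartilage and bone cells, rose to 75.5, 119 and 31.4 CPM, against 5.55, 13.7 and 8.83 CPM at day 0 (log2 change 2.91 ± 0.42 SE, adjusted p = 0.0234), and Itga5, the fibronectin receptor chain, fell to 133, 131 and 141 CPM, against 251, 329.6 and 188 CPM at day 0 (log2 change -0.89 ± 0.20 SE, adjusted p = 0.0474). Leaving out batch 18, 19 or 21 gave adjusted p of 0.0984 to 0.221, 0.0398 to 0.129 and 0.00186 to 0.0737 for the 15 called genes and kept 0, 3 and 14 calls. Calls that needed the block were Il34 (0.0910) and Lepr (0.184).

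Markers of macrophages rose in every culture. Of 13 tested 12 passed as higher (92.3%, against 10.4% of all genes). All 13 had higher values in each culture, with a median log2 change of 4.64 (5.07, 5.40 and 3.02 by culture). The mannose receptor Mrc1 had 138, 424 and 942 CPM at day 10, against 1.58, 5.49 and 53.3 CPM at day 0 (log2 change 5.58 ± 0.60 SE, adjusted p = 0.0178). The receptor for Csf1, Csf1r, had 57.0, 270.2 and 592 CPM at day 10, against 2.53, 9.07 and 98.1 CPM at day 0 (log2 change 3.98 ± 0.55 SE, adjusted p = 0.0225). Batch 21 stood highest and batch 18 lowest on both days, so the day 0 level of batch 21 exceeded the day 10 level of batch 18 and the days overlapped for Csf1r. Lyz2, macrophage lysozyme, had 1154, 3065 and 8600 CPM at day 10, against 33.0, 89.4 and 673 CPM at day 0 (log2 change 4.64 ± 0.42 SE, adjusted p = 0.0147). Its near-copy Lyz1 had 29.6, 35.4 and 119 CPM at day 10, against 0.0555, 0.105 and 0.228 CPM at day 0 (log2 change 8.80 ± 0.19 SE, adjusted p = 0.00482). The split of reads between the 2 genes is uncertain. The summed level of the list ran from 1689 to 12816 CPM at day 10, against 46.4 to 1175 CPM at day 0. The calls rested on the block: without it 0 of the 13 passed (5 at an unadjusted p under 0.05), and DESeq2 with the block called 13. Without the batch 18, 19 and 21 pairs the counts were 0, 0 and 13. In batch 21, the culture with the lowest levels of Ibsp and Bglap at day 10, all 13 macrophage genes were highest on both days. Their part in the levels of the bone genes was not tested. The adjusted p of these 4 called genes ran over 0.0944 to 0.144 without the batch 18 pair, 0.0398 to 0.0648 without batch 19 and 0.00108 to 0.00161 without batch 21, which left 0, 1 and 4 of them past the threshold. Without the block Mrc1 (0.0844), Csf1r (0.198) and Lyz2 (0.0962) did not pass.

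Complement genes, which mark targets for removal, rose as well. Of 16 tested 13 rose (81.25%, against 10.4% of all genes) and none fell. The median log2 change was 3.12 (4.48, 2.87 and 2.29 by culture). Without the block 9 rose, and without the batch 18, 19 and 21 pairs 0, 2 and 16 did. The macrophage products C1qa, C1qb and C1qc are also in the list above. C1qb had 61.0, 266 and 512 CPM at day 10, against 0.972, 5.70 and 74.9 CPM at day 0 (log2 change 4.69 ± 0.78 SE, adjusted p = 0.0287), in the same order of cultures as Mrc1. C3, the central component, had 59.5, 22.8 and 6.19 CPM at day 10, against 0.361, 0.627 and 0.815 CPM at day 0 (log2 change 5.13 ± 0.94 SE, adjusted p = 0.0332), and here batch 18 was highest at day 10 and batch 21 lowest. The inhibitor Serping1 had 215, 90.5 and 74.3 CPM at day 10, against 6.55, 16.0 and 11.6 CPM at day 0 (log2 change 3.35 ± 0.60 SE, adjusted p = 0.0322). The proteases C1ra and C1s1 rose (log2 changes 1.38 ± 0.32 and 1.76 ± 0.37 SE, adjusted p = 0.0499 and 0.0418). C4b rose (log2 change 2.70 ± 0.56 SE, adjusted p = 0.0408) and its near-copy C4a did not pass (log2 change -0.12 ± 0.35 SE, adjusted p = 0.822). Reads that match both make that split uncertain. Masp1, a complement-activating protease outside the list, fell to 67.1, 59.5 and 171 CPM at day 10, against 373, 556 and 543 CPM at day 0 (log2 change -2.45 ± 0.33 SE, adjusted p = 0.0222). Of 16 chemokines tested 5 rose and 1 fell (31.25% and 6.25%, against 10.4% and 8.45% of all genes). Ccl3, a macrophage chemokine, had 3.61, 8.50 and 14.6 CPM at day 10, against 0.0278, 0.157 and 0.847 CPM at day 0 (log2 change 5.10 ± 0.55 SE, adjusted p = 0.0178). With the batch 18, 19 or 21 pair left out, 0, 0 and 8 of the 8 called genes named here stayed past the threshold, at adjusted p of 0.0984 to 0.154, 0.0515 to 0.142 and 0.00108 to 0.0294. C1qb (0.189) did not pass without the block.

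Osteoclast markers were partly present. Osteoclasts are bone-resorbing cells of the macrophage lineage. Of 7 tested 4 rose (57.1%, against 10.4% of all genes). They were Mmp9, the proton pump subunit Atp6v0d2, cathepsin K (Ctsk) and Tnfrsf11a (RANK). Atp6v0d2 had 2.98, 7.46 and 7.84 CPM at day 10, against 0.139, 0.131 and 0.228 CPM at day 0 (log2 change 5.11 ± 0.38 SE, adjusted p = 0.0132). Ctsk, which fibroblastic cells also make, had 527, 430.5 and 315 CPM at day 10, against 146, 164 and 170.0 CPM at day 0 (log2 change 1.38 ± 0.21 SE, adjusted p = 0.0252). The defining genes Calcr and Dcstamp were at 0 CPM in all 6 libraries for Calcr and at most 0.376 CPM for Dcstamp. Of the 3 called genes, 0, 1 and 3 passed when batch 18, 19 or 21 was left out (adjusted p 0.0984 to 0.137, 0.0423 to 0.0886 and 0.00963 to 0.0433). In the fit without the block Tnfrsf11a (0.207) lost the call.

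Defining genes of fat cells stood high in 1 library. Adipoq, adiponectin, had 30.7, 0.838 and 0.0477 CPM at day 10, against 0.0555, 0 and 0 CPM at day 0. Plin1, the coat protein of lipid droplets, had 22.4, 0.433 and 0.119 CPM at day 10 with no count at day 0. Fabp4, the fatty acid carrier of fat cells and some macrophages, had 57.8, 2.51 and 0.858 CPM at day 10, against 0.250, 0.209 and 0.163 CPM at day 0 (log2 change 5.28 ± 1.25 SE, adjusted p = 0.0521). In these 3 genes the day 10 library of batch 18 stood far above the rest. Adipoq and Plin1 were too low elsewhere to be tested, as were 6 of the 11 markers in all. Of the 5 tested 3 rose (60.0%, against 10.4% of all genes). Lpl, lipoprotein lipase, which macrophages and stromal cells also make, had 393, 222 and 198 CPM at day 10, against 12.1, 10.4 and 20.6 CPM at day 0 (log2 change 4.23 ± 0.40 SE, adjusted p = 0.0157). The regulators Cebpa and Pparg rose beside it (log2 changes 2.80 ± 0.19 and 2.03 ± 0.32 SE, adjusted p = 0.0128 and 0.0269). Those 3 rose in every culture. Car3, a carbonic anhydrase abundant in fat and muscle, had 112, 48.4 and 6.12 CPM at day 10, against 0.111, 0.0261 and 0.0978 CPM at day 0 (log2 change 9.36 ± 0.68 SE, adjusted p = 0.0129), and followed the same order of cultures as Adipoq. Leaving out batch 18, 19 or 21 gave adjusted p of 0.102 to 0.155, 0.0423 to 0.0525 and 0.00108 to 0.0335 for the 4 called genes and kept 0, 3 and 4 calls.

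Cartilage genes did not share a direction. Col2a1, the main collagen of cartilage, had 387, 1233 and 1356 CPM at day 10, against 768, 8826 and 1644 CPM at day 0 (log2 change -1.34 ± 0.56 SE, adjusted p = 0.158), and the day 0 library of batch 19 was far above all others. Aggrecan, Acan, had 9.67, 51.6 and 5.72 CPM at day 10, against 16.0, 86.8 and 6.22 CPM at day 0 (log2 change -0.54 ± 0.17 SE, adjusted p = 0.0889), highest in batch 19 on both days. The regulator Sox9 had 49.0, 52.5 and 74.2 CPM at day 10, against 69.5, 63.3 and 92.0 CPM at day 0 (log2 change -0.36 ± 0.10 SE, adjusted p = 0.0643). Of 15 tested 5 rose (33.3%, against 10.4% of all genes) and none fell. They were Matn1, Matn4, Cnmd, Col9a2 and Col9a3. Matn4, a matrilin also made outside cartilage, had 1248, 819.6 and 592 CPM at day 10, against 6.86, 3.00 and 48.9 CPM at day 0 (log2 change 6.53 ± 1.22 SE, adjusted p = 0.0343). Cnmd, chondromodulin, had 74.7, 126 and 225 CPM, against 0.417, 10.1 and 15.5 CPM at day 0 (log2 change 4.59 ± 0.80 SE, adjusted p = 0.0310). The hypertrophic marker Col10a1 stayed low, with 3.37, 4.54 and 0.762 CPM at day 10, against 0.389, 2.19 and 0.717 CPM at day 0. Markers of other cell types were low or mixed. The neural and glial list summed to 58.4 to 67.2 CPM at day 10, against 35.9 to 75.5 CPM at day 0. The skeletal muscle list summed to 14.6 to 37.7 CPM at day 10, against 3.78 to 11.3 CPM at day 0, and the endothelial list to 4.65 to 11.2 CPM at day 10, against 4.76 to 6.53 CPM at day 0. Of the endothelial markers Tie1 and Cldn5 had no count and Cdh5 reached at most 0.674 CPM. The T cell marker Cd3e had no count. The muscle regulators Myod1 and Myf5 were at 0 to 0.0261 CPM. Of the few members tested of the endothelial, muscle, neural and blood cell lists, Tek, Myh8 and the mast cell protease Cpa3 rose (log2 changes 1.98 ± 0.27, 5.86 ± 0.23 and 3.23 ± 0.71 SE, adjusted p = 0.0222, 0.0101 and 0.0458). Cpa3 had 0.313, 0.289 and 0.524 CPM at day 10, against 0.0278, 0 and 0.0978 CPM at day 0. Of 14 contractile genes tested 0 passed (3 at an unadjusted p under 0.05, and 3 higher and 1 lower in DESeq2). Acta2, smooth muscle actin, had 1714, 1576 and 2399 CPM at day 10, against 2637, 2710 and 2443 CPM at day 0 (log2 change -0.48 ± 0.22 SE, adjusted p = 0.188). Cpa3 did not pass without any 1 of the 3 pairs, nor without the block (adjusted p = 0.0530), nor in DESeq2 (adjusted p = 0.0577). The adjusted p of the other 5 called genes ran over 0.0944 to 0.186 without the batch 18 pair, 0.0398 to 0.0976 without batch 19 and 0.00130 to 0.0352 without batch 21, which left 0, 1 and 5 of them past the threshold. Without the block Cnmd (0.0621) and Tek (0.182) did not pass.

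**Figure D3:**
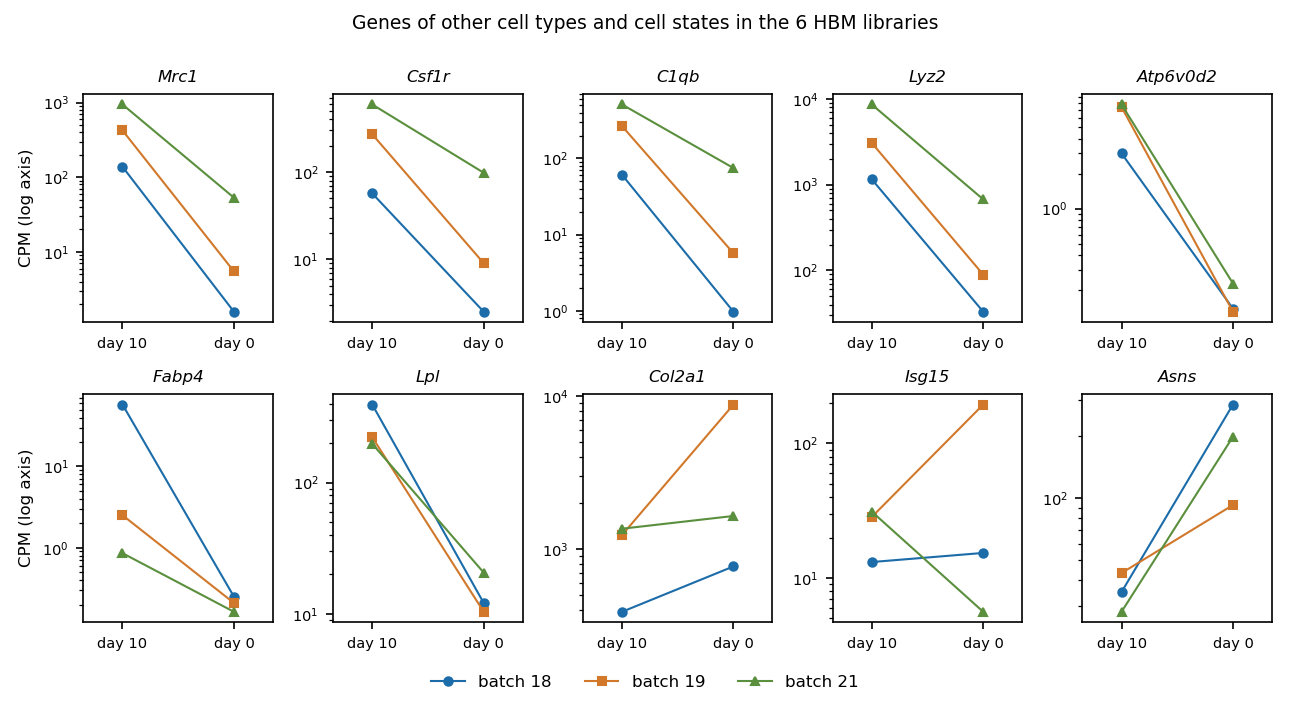
Level of 10 genes of other cell types and cell states in the 6 HBM libraries, in CPM on a log axis, day 10 on the left and day 0 on the right of each panel, with symbols for the cultures as in the plot of bone genes. The macrophage genes Mrc1, Csf1r, C1qb and Lyz2 are higher at day 10 in each culture, with batch 21 on top and its lines the least steep, Fabp4 is high in batch 18 at day 10 alone (57.8 CPM), Col2a1 and Isg15 are high in batch 19 at day 0 (8826 and 195 CPM), and among the day 0 libraries Asns is lowest in batch 19.

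Most of the aminoacyl-tRNA synthetases fell, and so did 11 of 30 targets of Atf4 and the stress response. Atf4 is a transcription factor translated when amino acids run short or the endoplasmic reticulum is stressed, and it turns on genes of amino acid synthesis, transport and tRNA charging. Of 20 aminoacyl-tRNA synthetases, which load amino acids onto tRNAs, 15 fell (75.0%, against 8.45% of all genes). The other 5 had lower values that did not pass. The median log2 change was -0.77, with -1.04, -0.52 and -0.89 by culture, and 0, 4 and 6 fell without the batch 18, 19 and 21 pairs. Aars had 146, 163 and 139 CPM at day 10, against 533, 235 and 451 CPM at day 0 (log2 change -1.37 ± 0.31 SE, adjusted p = 0.0468). Nars had 147, 176 and 154 CPM, against 509, 272 and 381 CPM at day 0 (log2 change -1.24 ± 0.25 SE, adjusted p = 0.0382). The day 10 levels were nearly equal, and the day 0 levels were lowest in batch 19. Of the 30 targets none rose and 19 did not pass (median log2 change -1.54), and the culture medians of -2.15, -0.32 and -1.86 again set batch 19 apart. The share of falls among them was 36.7%, against 8.45% of all genes. Without the batch 18, 19 and 21 pairs 0, 14 and 3 fell. Slc7a5, an importer of large amino acids, fell to 44.5, 54.5 and 27.8 CPM at day 10, against 626, 147 and 388 CPM at day 0 (log2 change -3.05 ± 0.60 SE, adjusted p = 0.0366). Asns, asparagine synthetase, fell to 35.1, 43.4 and 28.2 CPM, against 284, 92.6 and 198 CPM at day 0 (log2 change -2.33 ± 0.44 SE, adjusted p = 0.0354). The cystine importer Slc7a11 fell to 0.963, 0.867 and 0.882 CPM, against 27.5, 2.61 and 11.7 CPM at day 0 (log2 change -3.46 ± 0.72 SE, adjusted p = 0.0402). The serine synthesis genes Phgdh, Psat1 and Psph fell (log2 changes -2.14 ± 0.21, -1.65 ± 0.28 and -1.54 ± 0.35 SE, adjusted p = 0.0164, 0.0302 and 0.0468). Trib3, a pseudokinase induced by the same response, had 2.65, 4.13 and 1.31 CPM at day 10, against 132, 6.14 and 85.6 CPM at day 0, and did not pass (log2 change -4.35 ± 1.45 SE, adjusted p = 0.103), with batch 19 low on both days. Atf4 itself had 185, 210.0 and 165 CPM at day 10, against 379, 221 and 315 CPM at day 0 (log2 change -0.68 ± 0.23 SE, adjusted p = 0.101). Of 21 chaperones and folding enzymes of the endoplasmic reticulum tested 2 fell, Canx and Hyou1 (log2 changes -0.76 ± 0.12 and -0.79 ± 0.09 SE, adjusted p = 0.0247 and 0.0194), none rose, and the median log2 change was -0.07. The share of falls (9.52%) was near that of all genes (8.45% lower). The chaperone Hspa5 had 993, 896 and 959 CPM at day 10, against 1182, 1146 and 1158 CPM at day 0 (log2 change -0.29 ± 0.13 SE, adjusted p = 0.173). With the batch 18, 19 or 21 pair left out, 0, 6 and 4 of the 10 called genes named here stayed past the threshold, at adjusted p of 0.109 to 0.216, 0.0398 to 0.0865 and 0.0143 to 0.0880.

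The start regions of 3 of these genes are shown because they hold matches to TGATGNAA, searched on both strands. These letters stand for the composite element bound by Atf4 and C/EBP factors. Windows are as above, with matches in capitals: Asns at chr6:7693160-7693459 (minus strand), Slc7a11 at chr3:50443564-50443863 (minus strand) and Aars at chr8:111033592-111033891 (plus strand).
Asns: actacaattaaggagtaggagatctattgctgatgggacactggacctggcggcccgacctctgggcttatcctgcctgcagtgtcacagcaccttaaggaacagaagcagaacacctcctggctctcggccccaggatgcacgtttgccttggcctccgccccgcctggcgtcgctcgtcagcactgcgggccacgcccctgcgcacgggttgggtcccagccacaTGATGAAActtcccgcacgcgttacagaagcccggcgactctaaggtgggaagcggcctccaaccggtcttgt
Slc7a11: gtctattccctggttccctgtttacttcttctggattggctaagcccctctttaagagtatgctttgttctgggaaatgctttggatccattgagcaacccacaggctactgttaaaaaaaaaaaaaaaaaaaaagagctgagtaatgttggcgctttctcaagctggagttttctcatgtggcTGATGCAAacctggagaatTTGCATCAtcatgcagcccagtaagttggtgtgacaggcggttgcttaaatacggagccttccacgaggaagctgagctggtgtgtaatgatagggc
Aars: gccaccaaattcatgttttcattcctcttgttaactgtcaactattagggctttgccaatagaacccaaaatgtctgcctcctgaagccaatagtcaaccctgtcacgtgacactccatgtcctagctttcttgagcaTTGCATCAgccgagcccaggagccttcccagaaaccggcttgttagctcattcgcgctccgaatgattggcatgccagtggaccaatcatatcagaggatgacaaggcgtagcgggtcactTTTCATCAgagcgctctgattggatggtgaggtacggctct
Asns held 1 match at -23, Slc7a11 held 2, at -66 and on the other strand at -47, and Aars held 2 on the other strand, at -112 and 9. Of the 30 stress response targets 27 had a RefSeq promoter and 10 of these held the motif, in 10 of 34 promoters. Of the 20 synthetases 12 had one and 5 held it, in 5 of 12 promoters. Of all 32851 promoters 3.97% hold it. The genes were listed as known targets of this response and the 3 windows were picked as holders, so these shares are not separate evidence. The matches describe the letters in the window, and binding was not tested. Holders were not all called: Trib3, Chac1 and Atf3 hold it and did not pass (log2 change -1.91 ± 0.80 SE, adjusted p = 0.157 for Chac1 and log2 change 2.01 ± 0.58 SE, adjusted p = 0.0761 for Atf3).

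All 22 sterol synthesis and uptake genes tested had lower fitted levels, and 7 fell (31.8%, against 8.45% of all genes). Their median log2 change was -0.81. Cyp51, a demethylase of the cholesterol pathway, fell to 82.7, 121 and 60.5 CPM at day 10, against 214, 310.5 and 92.2 CPM at day 0 (log2 change -1.12 ± 0.19 SE, adjusted p = 0.0302). Batch 21 was already low at day 0, and the culture medians were -0.99, -1.17 and -0.29. Without the batch 18, 19 and 21 pairs 0, 0 and 20 fell, and without the block 1 did. Of 30 cell cycle genes none fell and 2 inhibitors of cell division rose (6.67%), below the shares of all genes (10.4% higher and 8.45% lower). Cdkn1c, p57, had 171, 152 and 144 CPM at day 10, against 19.3, 32.8 and 9.61 CPM at day 0 (log2 change 3.08 ± 0.36 SE, adjusted p = 0.0198). Cdkn2a had 66.4, 32.5 and 53.4 CPM, against 31.2, 15.5 and 34.4 CPM at day 0 (log2 change 0.93 ± 0.14 SE, adjusted p = 0.0237). The proliferation marker Mki67 had 68.7, 123 and 63.0 CPM at day 10, against 130.2, 212 and 58.1 CPM at day 0 (log2 change -0.53 ± 0.23 SE, adjusted p = 0.172). In batches 18 and 19 it was lower at day 10, and in batch 21 both days were at a low level. The list's culture medians were -0.41, -0.73 and 0.39, and 13 genes fell without the batch 21 pair. Of the 3 called genes, 0, 1 and 3 passed when batch 18, 19 or 21 was left out (adjusted p 0.133 to 0.172, 0.0398 to 0.104 and 0.00747 to 0.0111). In the fit without the block Cyp51 (0.127) and Cdkn2a (0.149) lost the call.

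Interferon response genes stood high in the day 0 library of batch 19, with Isg15 at 13.1, 28.4 and 31.2 CPM at day 10, against 15.4, 195 and 5.61 CPM at day 0. Of 22 tested 1 rose, Ifi27l2a (log2 change 2.25 ± 0.39 SE, adjusted p = 0.0311), and the culture medians were -0.10, -1.65 and 2.38. The share of rises (4.55%) was below that of all genes (10.4% higher), and none fell. Genes of glycolysis and hypoxia summed to 3487, 6046 and 3390 CPM at day 10, against 7704, 5202 and 5877 CPM at day 0. Batch 19 was highest at day 10 and lowest at day 0, and the culture medians were -1.05, 0.25 and -0.62. Slc16a3, a lactate exporter, had 15.0, 86.8 and 2.95 CPM at day 10, against 20.3, 3.45 and 19.0 CPM at day 0 (log2 change 0.13 ± 1.73 SE, adjusted p = 0.962). Of 26 tested 1 rose, Aldoc, and 1 fell, Adm (log2 changes 1.47 ± 0.34 and -1.91 ± 0.25 SE, adjusted p = 0.0492 and 0.0218). These shares (3.85% each) were below those of all genes (10.4% higher and 8.45% lower). Of 25 nuclear genes of the respiratory chain 0 passed (3 at an unadjusted p under 0.05, 0 without the block and 1 lower in DESeq2), with a median log2 change of -0.08. Among 19 immediate early genes 1 rose and 3 fell, the growth-linked Fosl1 and its relative Fosl2 among the falls (log2 changes -2.98 ± 0.37 and -0.74 ± 0.09 SE, adjusted p = 0.0209 and 0.0209). The list's shares were 5.26% higher and 15.8% lower, against 10.4% and 8.45% of all genes. Fos had 10.8, 7.28 and 111 CPM at day 10, against 6.83, 48.5 and 79.3 CPM at day 0, highest in batch 21 on both days. Leaving out batch 18, 19 or 21 gave adjusted p of 0.0984 to 0.201, 0.0409 to 0.150 and 0.0175 to 0.0428 for the 5 called genes and kept 0, 1 and 5 calls. Calls that needed the block were Ifi27l2a (0.228) and Aldoc (0.128).

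**Figure D4:**
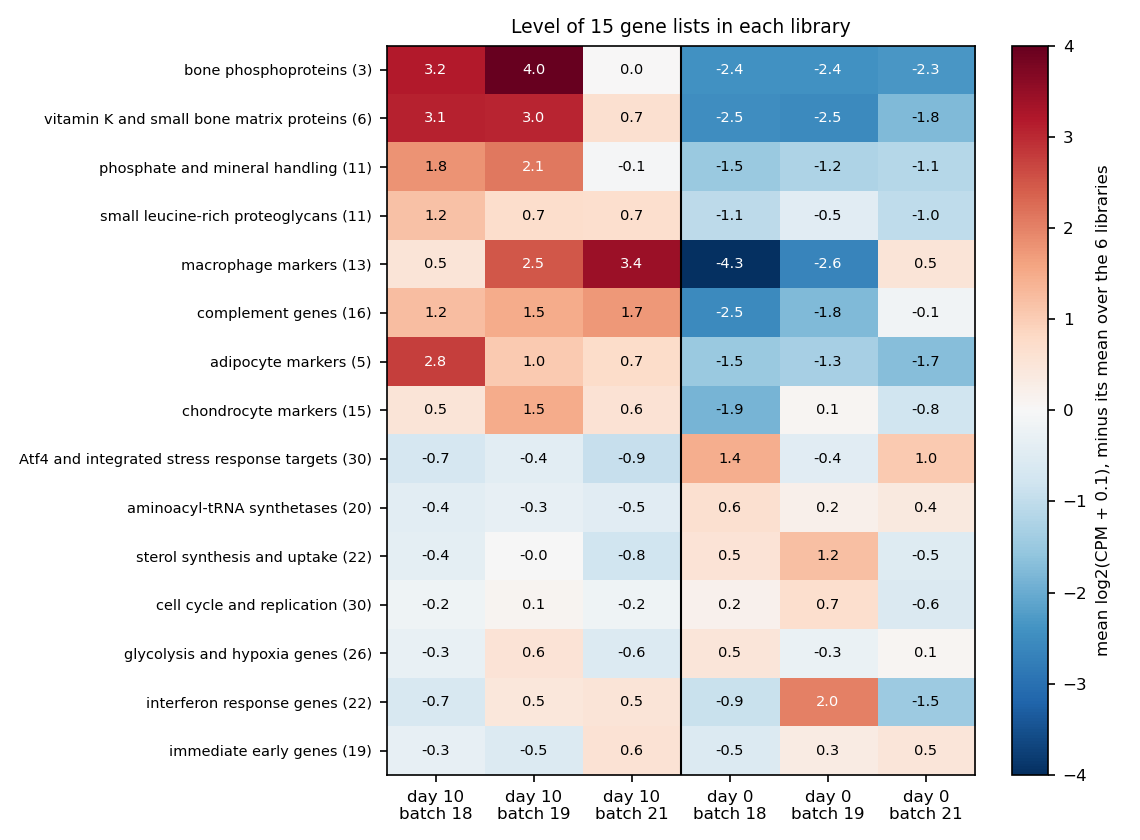
Level of 15 gene lists in the 6 HBM libraries (columns, day 10 left of day 0), as the mean over tested members of log2 of CPM plus 0.1 minus the list's mean over the 6 libraries (colour and printed number; number of members in parentheses). Bone protein lists are high in the day 10 libraries of batches 18 and 19 and near their mean in that of batch 21, macrophage markers are lowest in batch 18 and highest in batch 21 on both days, stress response targets are high at day 0 in batches 18 and 21, and interferon genes are high at day 0 in batch 19.

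**Figure D5:**
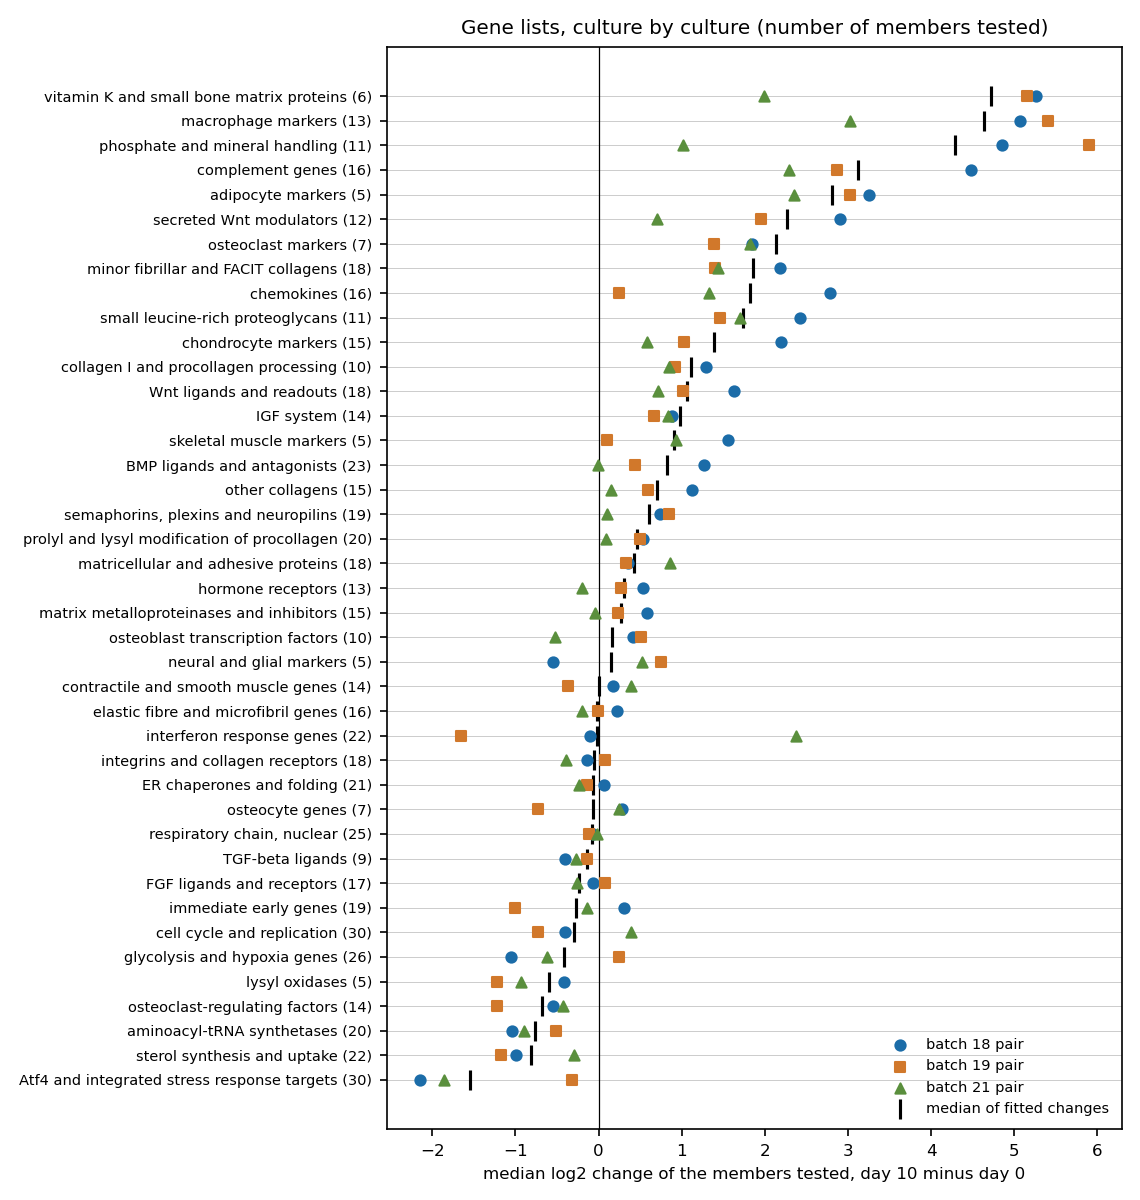
Median log2 change from day 0 to day 10 (horizontal axis) of the members tested of each gene list with at least 5 of them (rows, ordered by the median of the fitted changes, black bars), shown for each culture (blue circles for batch 18, orange squares for batch 19, green triangles for batch 21). The cultures lie close together for the proteoglycans (1.46 to 2.42) and far apart for phosphate and mineral handling (1.02 to 5.89) and the interferon genes (-1.65 to 2.38).

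Beyond the lists, the largest changes joined genes of several cell types. Of the 15 largest rises and the 15 largest falls among called genes with a mean of at least 20 CPM on the higher day, 10 rises and 8 falls are described above. Marco, a scavenger receptor of macrophages, had 106, 26.4 and 154 CPM at day 10, against 0.0278, 0.209 and 0.163 CPM at day 0 (log2 change 9.23 ± 0.71 SE, adjusted p = 0.0135). Wfdc17, a secreted protein of macrophages, had 21.3, 49.5 and 114 CPM, against 0, 0.0784 and 1.17 CPM at day 0 (log2 change 7.67 ± 0.67 SE, adjusted p = 0.0145). Both were highest in batch 21 at day 10. Tspan8, a tetraspanin, had 25.2, 29.7 and 5.31 CPM, against 0.0833, 0.0784 and 0.0652 CPM at day 0 (log2 change 7.94 ± 0.41 SE, adjusted p = 0.0109). Ramp1, a partner of the calcitonin receptor family, had 38.4, 55.9 and 7.29 CPM, against 0.361, 0.0523 and 0.228 CPM at day 0 (log2 change 7.11 ± 0.85 SE, adjusted p = 0.0201). Both were lowest in batch 21 at day 10. Penk, which encodes the enkephalin precursor, had 273, 152 and 218 CPM at day 10, against 1.94, 2.35 and 3.91 CPM at day 0 (log2 change 6.30 ± 0.34 SE, adjusted p = 0.0109), a more even rise over the cultures. The falls included Ptprn, a membrane protein of secretory granules, with 3.15, 2.80 and 2.10 CPM at day 10, against 34.2, 36.7 and 34.7 CPM at day 0 (log2 change -3.73 ± 0.18 SE, adjusted p = 0.0106). Kcnj15, a potassium channel, had 2.60, 1.62 and 5.38 CPM, against 48.2, 24.1 and 39.8 CPM at day 0 (log2 change -3.65 ± 0.32 SE, adjusted p = 0.0145). Il1rl1, the receptor of interleukin 33, had 10.4, 4.16 and 7.48 CPM, against 94.6, 158 and 42.1 CPM at day 0 (log2 change -3.59 ± 0.61 SE, adjusted p = 0.0297). Hmga2, a chromatin protein of growing mesenchymal cells, fell to 25.2, 7.51 and 16.2 CPM at day 10, against 132, 185 and 123 CPM at day 0 (log2 change -3.28 ± 0.50 SE, adjusted p = 0.0247). Prkg2, Anxa8 and Rin1 fell by log2 values of 2.93, 2.75 and 2.36. The adjusted p of these 12 called genes ran over 0.0944 to 0.160 without the batch 18 pair, 0.0398 to 0.0508 without batch 19 and 0.00116 to 0.0266 without batch 21, which left 0, 10 and 12 of them past the threshold.

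The change in HBM cultures was set against the same change in the 6 WT libraries of days 10 and 0 with a test of the difference (12 libraries, the culture as a block). Of 15911 genes tested 0 (0.0%) differed (197 at an unadjusted p under 0.05; 0 in DESeq2). For several bone genes the fitted change was larger in HBM, with wide errors, and none of these differences passed. The HBM change exceeded the WT change by a log2 of 1.16 ± 1.73 SE for Ibsp, 2.91 ± 2.25 SE for Bglap, 2.13 ± 2.40 SE for Alpl and 1.27 ± 1.02 SE for Sp7 (unadjusted p = 0.525, 0.237, 0.403 and 0.249, edgeR's quasi-likelihood test). For Runx2 the difference was -0.04 ± 0.37 SE (unadjusted p = 0.919, same test). The smallest p on the side of a larger change in HBM belonged to Tnn, with log2 changes of 1.56 in HBM and -0.08 in WT cultures (difference 1.65 ± 0.36 SE, adjusted p = 0.999), followed by Sox18, Cox4i2, Gramd2 and Eva1a. On the other side it belonged to Lpp, an adhesion protein, with -0.78 in HBM and 0.06 in WT cultures (difference -0.83 ± 0.22 SE, adjusted p = 0.999), followed by Adamts5, Map2, Amot and Dpysl3. Of the 2829 genes called in HBM cultures, 2795 had a value in the WT fit and 2706 of these had the same sign there. The same count was not made over all genes tested, so it has no baseline.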

How the data were processed

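The authors sequenced polyadenylated RNA of pooled newborn calvarial osteoblast cultures and deposited raw counts of reads per gene for 24 libraries. Per the submitters' processing notes the tools were cutadapt 3.4, STAR 2.7.8a, featureCounts and Subread 2.0.1 on build mm10. The annotation, the strand setting and the treatment of reads that match several genes are not stated in the labels or the file headers, so overlapping and antisense genes and near-identical copies may share reads. Gene symbols were matched by Ensembl identifier to a reference annotation for 54164 of 54232 genes.

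From the deposited counts of the 6 HBM libraries of days 0 and 10, genes were kept by edgeR's filterByExpr, scaled by TMM and fitted with edgeR 4.0.16 (R 4.3.3) as day plus culture, with the quasi-likelihood test and Benjamini-Hochberg adjustment over all 15011 genes. The culture was the block because the comparison was defined as paired by the batch number. Same-numbered libraries also deviated together from their day means (correlations of 0.498, 0.252 and 0.468 for the 3 numbers, against -0.431 to 0.0107 for unlike numbers). Deviations from a day mean cancel out over its 3 libraries, which pushes the values for unlike numbers down. Part of this contrast is therefore built in. The labels give the batch number and do not say that a culture was sampled again. The SE of a log2 change is its size divided by the square root of F. Changes in 1 culture are log2 ratios of CPM after adding 2 counts. The p-values measure the spread among 3 pooled cultures, with 2 residual degrees of freedom. The test of HBM against WT changes used 12 libraries with the interaction of genotype and day.

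The genes named are a fixed set of bone genes, the 15 largest rises and falls among called genes at a mean of at least 20 CPM on the higher day, members of fixed gene lists, the genes with the most counts and the 5 genes of smallest interaction p in each direction. The comparison and the lists were chosen with earlier results of these data known. DESeq2 1.42.0, other scalings, filters and blocks, and leaving out each pair were alternatives. Total counts of 30261649 to 43013049 per library make counting error small beside the spread between cultures except for genes of a few counts.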

Additional observations from a re-analysis of the deposited data

Results flagged for a closer look

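Adamts5, an aggrecan-cleaving protease, had lower values at day 10 than at day 0 in every HBM culture (fitted log2 change -0.14, adjusted p = 0.371) and higher values in every WT culture (0.57, adjusted p = 0.168). Neither change passed, and in the batch 21 HBM culture the difference was small (230.9 CPM at day 10, against 233 CPM at day 0). The difference did not pass in the test of HBM against WT changes (adjusted p = 0.999, edgeR's quasi-likelihood test), in which 0 of 15911 genes passed.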

How the results depend on the processing

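Counts of calls depended on the libraries that set the spread. Against 1561 genes higher, 1268 lower and 1637 changed at least 2-fold in the paired fit, the 24 libraries together gave 3406 higher, 2936 lower and 2964 changed at least 2-fold with the culture as a replicate block, and 2345 higher and 2059 lower without it. The fit of 6 libraries with no replicate block gave 1050 higher and 1037 lower. Leaving out 1 pair gave 0 to 2001 higher genes, 0 to 1307 lower genes and 0 to 2081 changed at least 2-fold. The lowest counts came without batch 18 and the highest without batch 21, and without batch 19 there were 223 higher and 79 lower. DESeq2 called 2280 higher and 1587 lower. No alternative gave a gene that differed between HBM and WT changes. Values that changed sign when 1 pair was left out belonged to uncalled genes: Axin2 (-0.17 to 0.74), C4a (-0.32 to 0.20), Col5a2 (-0.51 to 0.11), Dlx5 (-0.15 to 0.80), Eva1a (-0.075 to 0.40), Fos (-1.10 to 0.56), Isg15 (-1.51 to 1.11), Pdpn (-0.24 to 0.26), Slc16a3 (-1.53 to 2.05, and -0.34 over the 24 libraries with the culture block) and Xist (-0.81 to 0.27), all log2 changes. The cause was not tested. Sost, Mepe, Adipoq and Plin1 were at or near 0 counts at day 0, and such counts limit their folds.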

Other observations

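The later libraries of the HBM cultures, which the comparison of days 0 and 10 does not use, gave values for the batch 21 culture that stood low at day 10. These are in CPM scaled over all 24 libraries of the series and without a test. Ibsp had 0.398, 93.8, 945 and 1708 CPM at days 0, 10, 15 and 21 in batch 21. Batch 18 had 0.491, 1440, 2206 and 2548 CPM, and batch 19 had 0.364, 2367, 3341 and 1879 CPM. Dmp1 changed its order of cultures. It had 0.631, 4.47, 140 and 96.7 CPM in batch 21, against 0.382, 51.2, 58.5 and 53.4 CPM in batch 18. In batch 19 it had 0.727, 125, 40.5 and 17.0 CPM. Bglap had 0.166, 15.8, 141 and 282 CPM in batch 21 on the same days, and Sost 0, 0.0235, 3.67 and 11.6 CPM. At day 21 batches 18 and 19 had 1710 and 786 CPM of Bglap and 64.2 and 75.9 CPM of Sost. The macrophage gene Mrc1 had 54.2, 929.6, 773 and 793 CPM in batch 21 on those days. Adipoq remained at 0 to 0.0470 CPM in batch 21 on all 4 days.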
